A study of Mus musculus with 12 samples.

Results

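The 31 genes described here encode the enzymes that make cholesterol and fatty acids and the proteins that control those enzymes. They were chosen by gene symbol, as the rows of the deposited count table whose Ensembl identifiers map to a list of mevalonate and cholesterol pathway genes, regulators of the sterol response and fatty acid genes. They are 31 of the 55385 genes in the table, and all 31 were among the 15905 genes with enough counts to test. By role, 7 belong to the mevalonate pathway, 3 to the squalene and lanosterol steps, 8 to the steps from lanosterol to cholesterol, 5 to regulation and sterol transport, and 8 to fatty acid synthesis and desaturation.

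RNA-seq was done on freshly dissected hippocampus of adult mice of 4 genotypes, with 3 libraries each. WT mice were the controls, and Kcnip3 KO mice lacked both copies of Kcnip3, which encodes KChIP3, a calcium-binding protein that binds potassium channels and can repress transcription. 5xFAD mice carry mutant human transgenes under Thy1 sequences, which drive expression mainly in neurons, and form amyloid plaques, and Kcnip3 KO-5xFAD mice carry the transgenes on the knockout background. The RNA came from one hemisphere, since the opposite one was used for proteomics, and whether the libraries of a genotype are separate animals is not known here, so p-values measure the spread between these libraries. In bulk tissue, fewer cells of a type and less RNA per cell cannot be told apart.

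Cells build cholesterol from acetyl-CoA through mevalonate, farnesyl diphosphate, squalene and lanosterol. When membrane sterol is low, the escort protein SCAP carries the SREBP transcription factors to the Golgi, where they are cut and released to switch on sterol and fatty acid genes, and INSIG proteins hold SCAP back when sterol is plentiful. The blood-brain barrier keeps out circulating cholesterol, so the brain makes its own, with astrocytes supplying neurons in the adult and oligodendrocytes placing most brain cholesterol in myelin. Desaturases and elongases then shape the fatty acids of membranes and myelin.

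The libraries held 7664407 to 11310714 counts. Levels are in CPM, counts divided by library size and scaled by the TMM method, and their precision rests on counts per gene that ranged from 15 to 63 for Idi1, the least abundant member, up to 6060 to 11666 for Scd2. Kcnip3 itself was at 158 to 162 CPM in WT, 138 to 156 in 5xFAD and 68.7 to 84.9 in Kcnip3 KO-5xFAD. In Kcnip3 KO it was at 71.4, 63.4 and 125 CPM, so library 3 was closer to the lowest 5xFAD library than to the other knockouts, and results that rest on Kcnip3 KO 3 are also given without it. Thy1, whose sequences are part of the transgenes, went against the label in 2 libraries. It was at 2277 CPM in library WT 3, against 747 and 887 in WT 1 and WT 2. It was at 926 CPM in Kcnip3 KO-5xFAD 2, against 3381 and 2592 in Kcnip3 KO-5xFAD 1 and 3. The microglial genes Trem2 and Cst7 moved both libraries the same way, so results are also given without these 2 libraries. WT 3 stood between the other WT libraries and 5xFAD. Its Trem2 was at 70.1 CPM and its Cst7 at 26.5, against 154 to 251 and 69.0 to 121 in 5xFAD, where Thy1 was at 2870 to 4236. Kcnip3 KO-5xFAD 2 had Trem2 at 26.2 CPM and Cst7 at 1.00, against 19.7 to 24.7 and 0 to 0.230 in Kcnip3 KO.

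Per transcript length, the fatty acid genes stood at both the top and the lower end of the range. The authors' deposited TPM values, which also divide by transcript length so that levels of different genes can be compared, averaged 668 over the 12 libraries for Scd2, the main brain stearoyl-CoA desaturase. Fads2 and Fads1, the desaturases that make long polyunsaturated fatty acids, followed at 284 and 174 TPM. The next were Pmvk at 133, Srebf2 at 118, Fasn at 109, Fdft1 at 105 and Scd1 at 96.7 TPM. At the other end were Acaca at 12.1, Stard4 at 11.4, Lss at 10.2, Hsd17b7 at 5.99 and Idi1 at 4.50 TPM. Of 50-base stretches of the longest transcript, 52.6% in Acaca, 30.7% in Fdft1 and 30.5% in Idi1 are shared with other genes, so their places are uncertain. Neighbours in this order mostly overlapped: Fads1 covered 149 to 212 TPM over the libraries and Pmvk 106 to 169, whereas Scd2 at 442 to 884 stayed above Fads2 at 248 to 321.

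**Figure D1:**
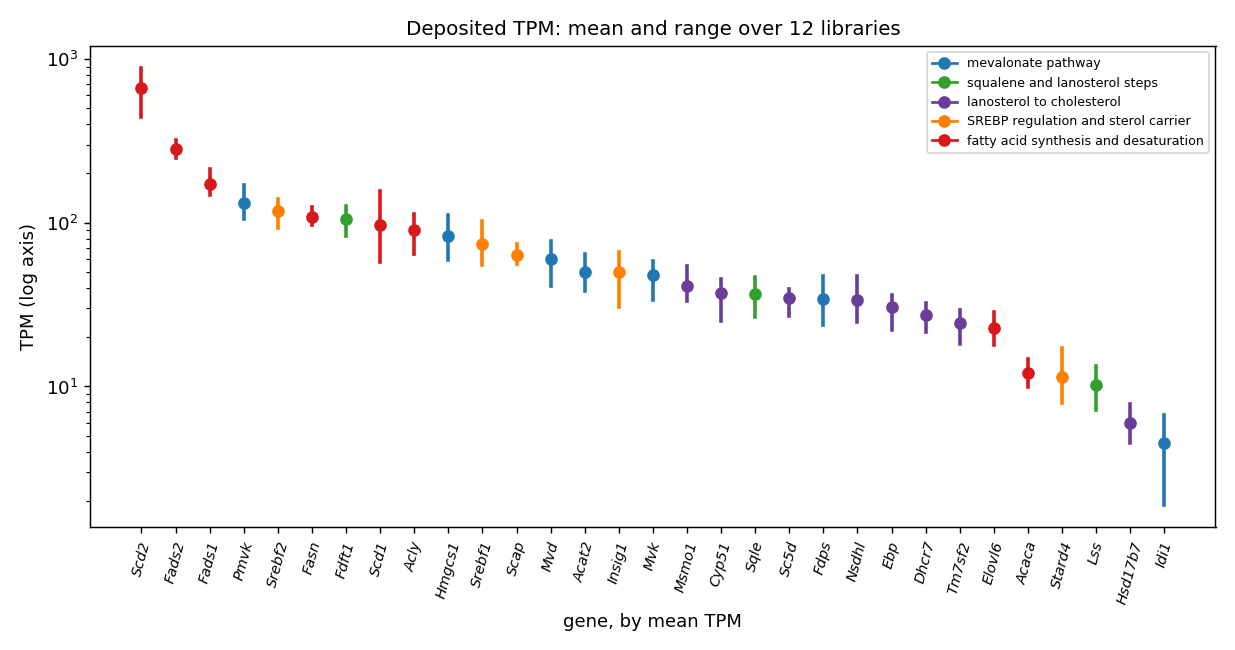
Mean deposited TPM of each of the 31 genes over the 12 libraries (points, log axis) with the lowest and highest library (lines), ordered by mean and coloured by pathway step. Scd2 at 668 TPM is the most abundant and Idi1 at 4.50 TPM the least.

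Since the sterol genes share known promoter elements, the windows around their start sites are shown for 4 members that the results below turn on or that stand for a step. RefSeq windows on GRCm38.p6, from 250 bases before to 50 after a start site, were given for 24 of the 31 genes. Each is written 5′ to 3′ on the gene's strand, and capitals mark matches, on either strand, to 3 motifs. These are the sterol regulatory element core TCACNCCAC, the E-box CACGTG and the NF-Y box CCAAT, which reads ATTGG on the other strand. Hmgcs1 (HMG-CoA synthase, chr13:119690101-119690400, plus strand) held the sterol element and 4 NF-Y boxes. Mvk (mevalonate kinase, chr5:114444019-114444318, plus strand) held 5 NF-Y boxes. Insig1 (the sterol-regulated retention protein, chr5:28071162-28071461, plus strand) held 1 E-box and 1 NF-Y box. Msmo1 (methylsterol monooxygenase, chr8:64733529-64733828, minus strand) held 3 NF-Y boxes.
Hmgcs1: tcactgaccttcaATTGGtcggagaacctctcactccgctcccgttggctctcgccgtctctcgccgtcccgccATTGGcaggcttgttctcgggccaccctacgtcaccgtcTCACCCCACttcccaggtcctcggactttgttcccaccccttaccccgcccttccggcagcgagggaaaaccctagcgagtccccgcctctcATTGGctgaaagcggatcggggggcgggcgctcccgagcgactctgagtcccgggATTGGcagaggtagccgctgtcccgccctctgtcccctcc
Mvk: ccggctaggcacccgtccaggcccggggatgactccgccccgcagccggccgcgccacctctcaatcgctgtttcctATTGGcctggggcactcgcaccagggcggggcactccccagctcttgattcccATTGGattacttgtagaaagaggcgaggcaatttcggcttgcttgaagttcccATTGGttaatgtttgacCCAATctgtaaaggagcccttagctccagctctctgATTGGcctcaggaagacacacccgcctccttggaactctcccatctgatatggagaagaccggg
Insig1: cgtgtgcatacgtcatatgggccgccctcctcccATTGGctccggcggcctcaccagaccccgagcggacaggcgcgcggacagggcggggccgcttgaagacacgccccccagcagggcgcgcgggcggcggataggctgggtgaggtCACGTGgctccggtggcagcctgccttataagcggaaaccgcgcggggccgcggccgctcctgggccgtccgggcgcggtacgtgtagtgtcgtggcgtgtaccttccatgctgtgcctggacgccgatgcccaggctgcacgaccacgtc
Msmo1: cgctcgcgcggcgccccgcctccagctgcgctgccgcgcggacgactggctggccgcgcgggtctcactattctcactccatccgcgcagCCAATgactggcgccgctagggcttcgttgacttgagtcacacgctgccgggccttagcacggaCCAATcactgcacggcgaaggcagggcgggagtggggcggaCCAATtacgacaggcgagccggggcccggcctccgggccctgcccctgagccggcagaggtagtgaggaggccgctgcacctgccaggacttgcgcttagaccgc
The NF-Y box was in a window of 19 of the 24 members (79.2%) and of 41.1% of 27025 genes with windows of the same length. The E-box was in 5 of 24 (Dhcr7, Hsd17b7, Insig1, Sc5d and Scap), or 20.8% against 8.09%, and the sterol element core in 1 of 24, Hmgcs1, or 4.17% against 1.44%. A match describes these letters and is not a measured site.

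The sterol enzymes varied together from library to library within a genotype. Over the 18 enzymes from Acat2 to Dhcr7, library WT 3 was the highest of its group for 13 and WT 1 the lowest for 13. In Kcnip3 KO, library 3 was the highest for 13 and library 1 the lowest for 16. In 5xFAD, library 2 was the highest for 12 and library 3 the lowest for 10. Library Kcnip3 KO-5xFAD 2 was the lowest of its group for 14 of the 18, while libraries 1 and 3 shared the high places with 9 and 7. Of all tested genes, a given library was the highest of its group for 22.3% to 40.4% and the lowest for 23.4% to 40.7%. Summed over the 18 enzymes, the level ran from 753 to 969 CPM in WT, 753 to 965 in Kcnip3 KO, 847 to 1012 in 5xFAD and 790 to 1054 in Kcnip3 KO-5xFAD, so all 4 genotypes overlapped.

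Marker sums of other features moved with this pattern. In each genotype the library with the highest sum of sterol enzymes also had the highest sum of the 10 microglial markers and the highest Thy1. These were WT 3 with 717 CPM of microglial markers against 407 and 423, Kcnip3 KO 3 with 463 against 405 and 425, 5xFAD 2 with 1792 against 1332 and 1392, and Kcnip3 KO-5xFAD 1 with 1358 against 496 and 1086. The sum of the 10 astrocyte markers was also highest in these 4 libraries. It was 5106 CPM in WT 3 against 4770 and 4340, 4897 in Kcnip3 KO 3 against 4732 and 4832, 7537 in 5xFAD 2 against 6506 and 6858, and 7446 in Kcnip3 KO-5xFAD 1 against 5024 and 5832. Marker by marker this held less well, since abundant genes weigh most in a sum. WT 3 was the highest of its group for 4 of the 10 astrocyte markers and WT 1 for 5. Kcnip3 KO 3 was the highest for 3 and Kcnip3 KO-5xFAD 1 for 6. Library 5xFAD 2 was the highest for 3 and the lowest for 6. Of the microglial markers, Cst7 was at 0 counts in WT 1 and Kcnip3 KO 2. The choroid plexus markers had their lowest sum in the same library in 3 of the 4 genotypes. Their sum was 241 CPM in WT 3 against 3954 and 4421, 346 in 5xFAD 2 against 7285 and 10162, and 544 in Kcnip3 KO-5xFAD 1 against 633 and 5332, whereas it was the highest in Kcnip3 KO 3, at 5270 against 3728 and 4736. These coincidences were noticed after the values were seen, and their part in the results was not tested.

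**Figure D2:**
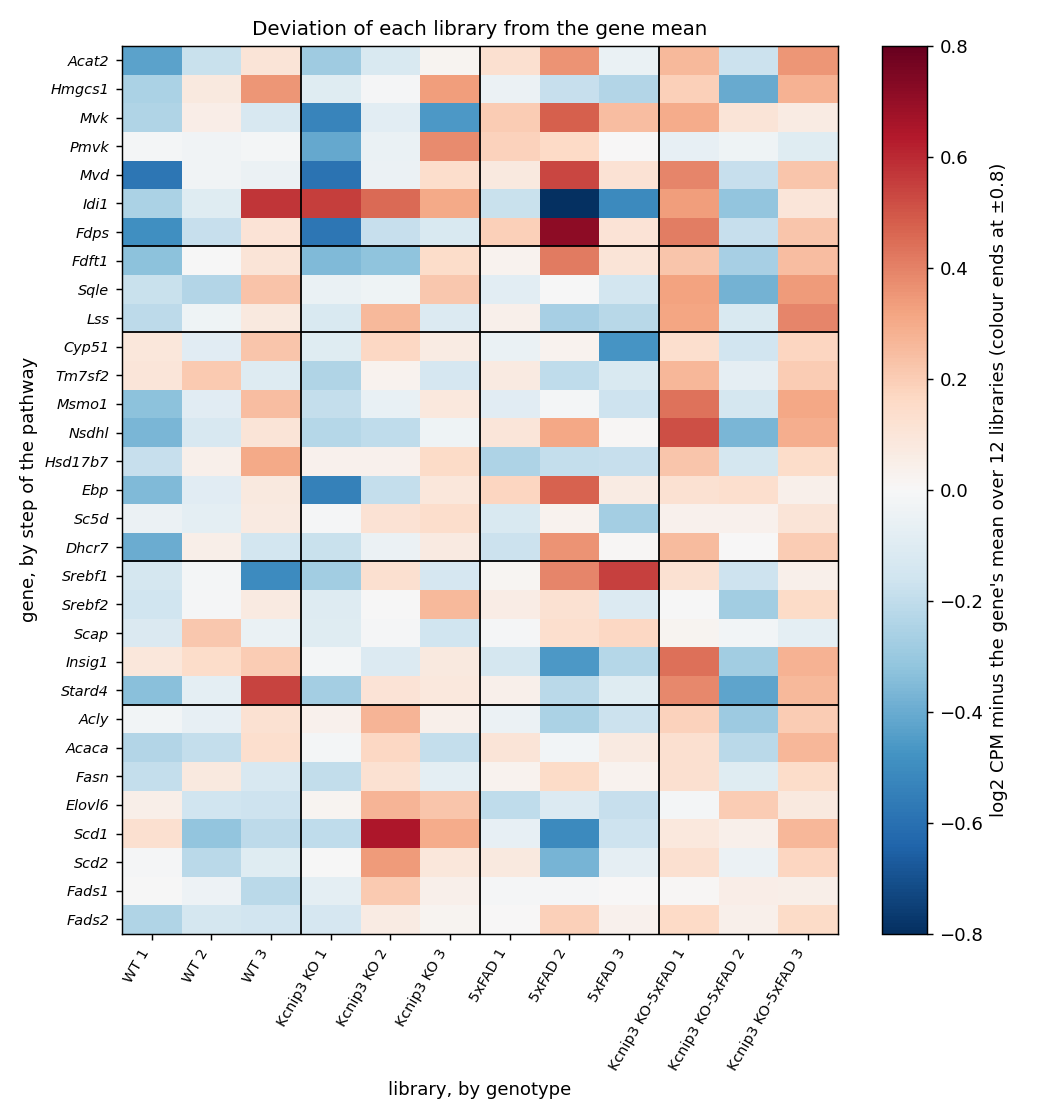
Deviation of each library (columns, grouped by genotype) from the gene's mean over the 12 libraries in log2 CPM, for the 31 genes by pathway step (rows). Libraries Kcnip3 KO-5xFAD 1 and 3 are above the mean for 17 of 18 sterol enzymes each, and Kcnip3 KO-5xFAD 2 for 4.

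The 8 fatty acid genes followed the library order of the 18 sterol enzymes only in part. WT 3 was the highest of its group for 2 of the 8, against 13 of the 18 sterol enzymes. Library 5xFAD 2 was the lowest for 5 of the 8 but the highest for 12 of the 18. Kcnip3 KO 2 was the highest of its group for 8 of 8, where Kcnip3 KO 3 was for 13 of the 18 sterol enzymes. Kcnip3 KO 1 was the lowest for 7 of the 8, and likewise for 16 of the 18. The 12 myelin markers, genes of oligodendrocytes, were also highest in Kcnip3 KO 2, for 11 of 12, and lowest in Kcnip3 KO 1 for 12 of 12. Among Kcnip3 KO-5xFAD libraries, library 2 was the lowest for 6 of the 8 fatty acid genes, as it was for 14 of the 18 sterol enzymes. The myelin markers differed there, with library 2 the highest for 9 of the 12. The part of myelin content in the fatty acid genes was not tested.

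**Figure D3:**
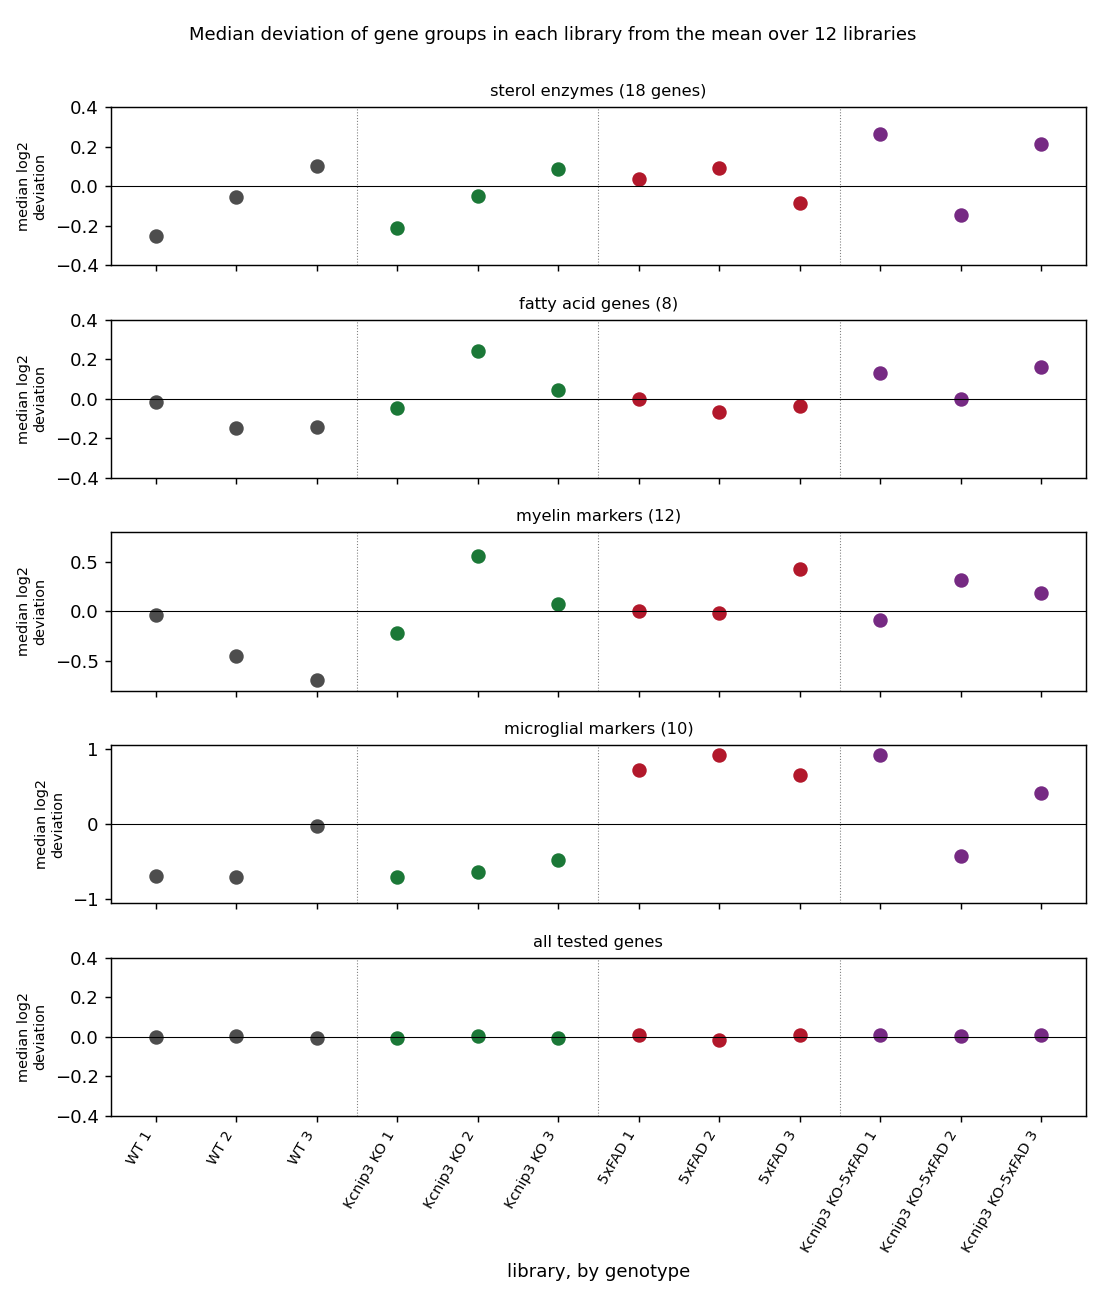
Median log2 deviation from the mean over 12 libraries, per library, for the 18 sterol enzymes, the 8 fatty acid genes, 12 myelin markers, 10 microglial markers and all tested genes (panels with their own axes). The sterol enzymes lie at -0.25 in WT 1 and 0.26 in Kcnip3 KO-5xFAD 1, whereas the median of all tested genes stays between -0.02 and 0.01.

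Comparing 5xFAD with WT asks how the transgenes and the plaque disease change these genes. No member passed the test, although 5 members lay wholly above WT and 2 wholly below, as did 13.7% and 13.9% of all tested genes. The largest differences were higher Srebf1, Fdps, Mvd and Mvk and lower Idi1 and Insig1, each by less than 1 on the log2 scale. With edgeR's quasi-likelihood test and Benjamini-Hochberg adjustment over all genes, 0 of 31 members were called at an adjusted p under 0.05, where 3.53% of all tested genes were. By DESeq2 2 members were called, Srebf1 and Fads2, where 8.93% of all tested genes were, and by limma-voom and by limma on TPM 0. At an unadjusted p under 0.05, 5 members were higher and 2 lower, against 12.4% and 12.9% of all tested genes. The median member differed by 0.05, beside 0.01 for all tested genes, with 16 higher and 15 lower. The 95% interval of the fold lay within 1.5-fold either way for 18 of the 31 and within 2-fold for 30, Idi1 being the exception.

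In the mevalonate pathway, Mvk, which phosphorylates mevalonate, stood at 44.6, 54.2 and 46.0 CPM in 5xFAD and 32.8, 40.2 and 35.5 in WT. Every 5xFAD library was above every WT library. This gave a log2 fold change of 0.41 ± 0.13 (SE), or 1.33-fold with a 95% interval of 1.09 to 1.62 (edgeR, adjusted p = 0.0828), and a correction for transcript length and GC content brought it to 0.22. Mvd, the decarboxylase that makes isopentenyl diphosphate, stood at 35.3, 48.5 and 36.3 CPM in 5xFAD and 22.3, 32.8 and 32.4 in WT, again without overlap. Its log2 fold change was 0.45 ± 0.21 (edgeR, adjusted p = 0.200), or 0.19 with the length and GC correction. Fdps, which joins isoprene units into farnesyl diphosphate, stood at 49.0, 70.8 and 46.3 CPM in 5xFAD and 30.5, 37.8 and 46.3 in WT. Library 5xFAD 2 was far above the rest, and 5xFAD 3 and WT 3 were level. Fdps thus differed by 0.53 ± 0.20 on the log2 scale (edgeR, adjusted p = 0.133), or 0.47 with the length and GC correction. Without library 5xFAD 2 the difference was 0.31.

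Idi1, the isomerase of isopentenyl diphosphate, stood at 3.81, 2.13 and 2.99 CPM in 5xFAD and 3.62, 4.04 and 6.58 in WT. It was the opposite of its neighbours, with 5xFAD 2 the lowest library of all and WT 3 the highest, and the groups overlapped. Its log2 fold change was -0.67 ± 0.29 (edgeR, adjusted p = 0.169), or -0.51 with the length and GC correction, and without WT 3 it was -0.36. Of the other mevalonate genes, Acat2 (cytosolic thiolase) differed by 0.30, Pmvk (phosphomevalonate kinase) by 0.13 and Hmgcs1 by -0.23, none called. Pmvk was without overlap, at 69.5 to 78.7 CPM in 5xFAD and 68.1 to 68.7 in WT, a gap narrower than the spread in 5xFAD, and with the length and GC correction its log2 fold change was -0.15. Parts of some transcripts are shared with other genes and pseudogenes, so their counts are uncertain. Of 50-base stretches of the longest transcript, this held for 45.9% in Acat2, 30.5% in Idi1, 30.7% in Fdft1 and 52.6% in Acaca.

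Among the later sterol enzymes, Ebp, the isomerase that moves the ring double bond, stood at 24.0, 29.6 and 22.3 CPM in 5xFAD and 16.6, 20.0 and 22.5 in WT. Only 5xFAD 3 reached into the WT range, and the log2 fold change was 0.36 ± 0.17 (edgeR, adjusted p = 0.196), or 0.19 with the length and GC correction. Hsd17b7 lay wholly below WT, at 7.62 to 7.97 CPM against 7.98 to 11.3, but its lowest WT library was level with 5xFAD. The remaining enzymes, Fdft1, Sqle, Lss, Cyp51, Tm7sf2, Msmo1, Nsdhl, Sc5d and Dhcr7, overlapped between the groups and differed by -0.23 to 0.26, none called.

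The 2 regulators with the smallest p differed in opposite directions, and neither was called. Srebf1, the SREBP gene best known for fatty acid synthesis, stood at 129, 167 and 186 CPM in 5xFAD and 115, 126 and 89.7 in WT. WT 3 was the lowest of the 12 libraries, and 5xFAD 1 was just above WT 2. The log2 fold change was 0.54 ± 0.16, or 1.46-fold with a 95% interval of 1.16 to 1.83 (edgeR, adjusted p = 0.0639), and 0.46 with the length and GC correction. Without 5xFAD 1 it was 0.68 and was called (edgeR, adjusted p = 0.0137), in a fit that called 13.1% of all tested genes. Insig1 stood at 41.9, 33.6 and 39.5 CPM in 5xFAD and 49.3, 51.3 and 53.3 in WT. The WT libraries lay close together and all above 5xFAD. Its log2 fold change was -0.42 ± 0.15, or 0.748-fold with a 95% interval of 0.598 to 0.936 (edgeR, adjusted p = 0.112), and -0.44 with the length and GC correction. Without library Kcnip3 KO-5xFAD 2, which is in neither group, Insig1 was called at -0.42 (edgeR, adjusted p = 0.0448), as were 4.02% of all tested genes. Srebf2, the SREBP gene best known for cholesterol synthesis, was at 265 ± 21.2 CPM in 5xFAD and 255 ± 20.3 in WT (SD, n = 3). The escort gene Scap differed by 0.08 and the sterol carrier Stard4 by -0.18, both within the spread.

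Of the fatty acid genes, Fads2 stood at 288, 327 and 294 CPM in 5xFAD and 243, 261 and 258 in WT, without overlap. Its log2 fold change was 0.26 ± 0.09 (edgeR, adjusted p = 0.103), or 0.14 with the length and GC correction. Fasn, the fatty acid synthase, was at 385 ± 19.4 CPM in 5xFAD and 348 ± 35.0 in WT, and Scd2 at 1028 ± 157 and 1033 ± 72.8 (SD, n = 3). The other fatty acid genes, Acly, Acaca, Elovl6, Scd1 and Fads1, differed by -0.17 to 0.14, none called. For all 8 fatty acid genes the 95% interval of the fold lay within 1.5-fold either way. In the same comparison 10 of 10 microglial markers were higher, summing to 1332 to 1792 CPM in 5xFAD and 407 to 717 in WT. Of the myelin markers 11 of 12 were higher, with a median log2 fold change of 0.54, summing to 6049 to 8419 CPM against 3580 to 5947. The astrocyte markers summed to 6506 to 7537 CPM in 5xFAD and 4340 to 5106 in WT, with 6 of 10 higher and 0 called. Of the 10 neuron markers 8 were lower, with a median of -0.12 and 1 called, summing to 5619 to 6426 CPM against 6345 to 6836. The part of any of these in the members' differences was not tested.

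**Figure D4:**
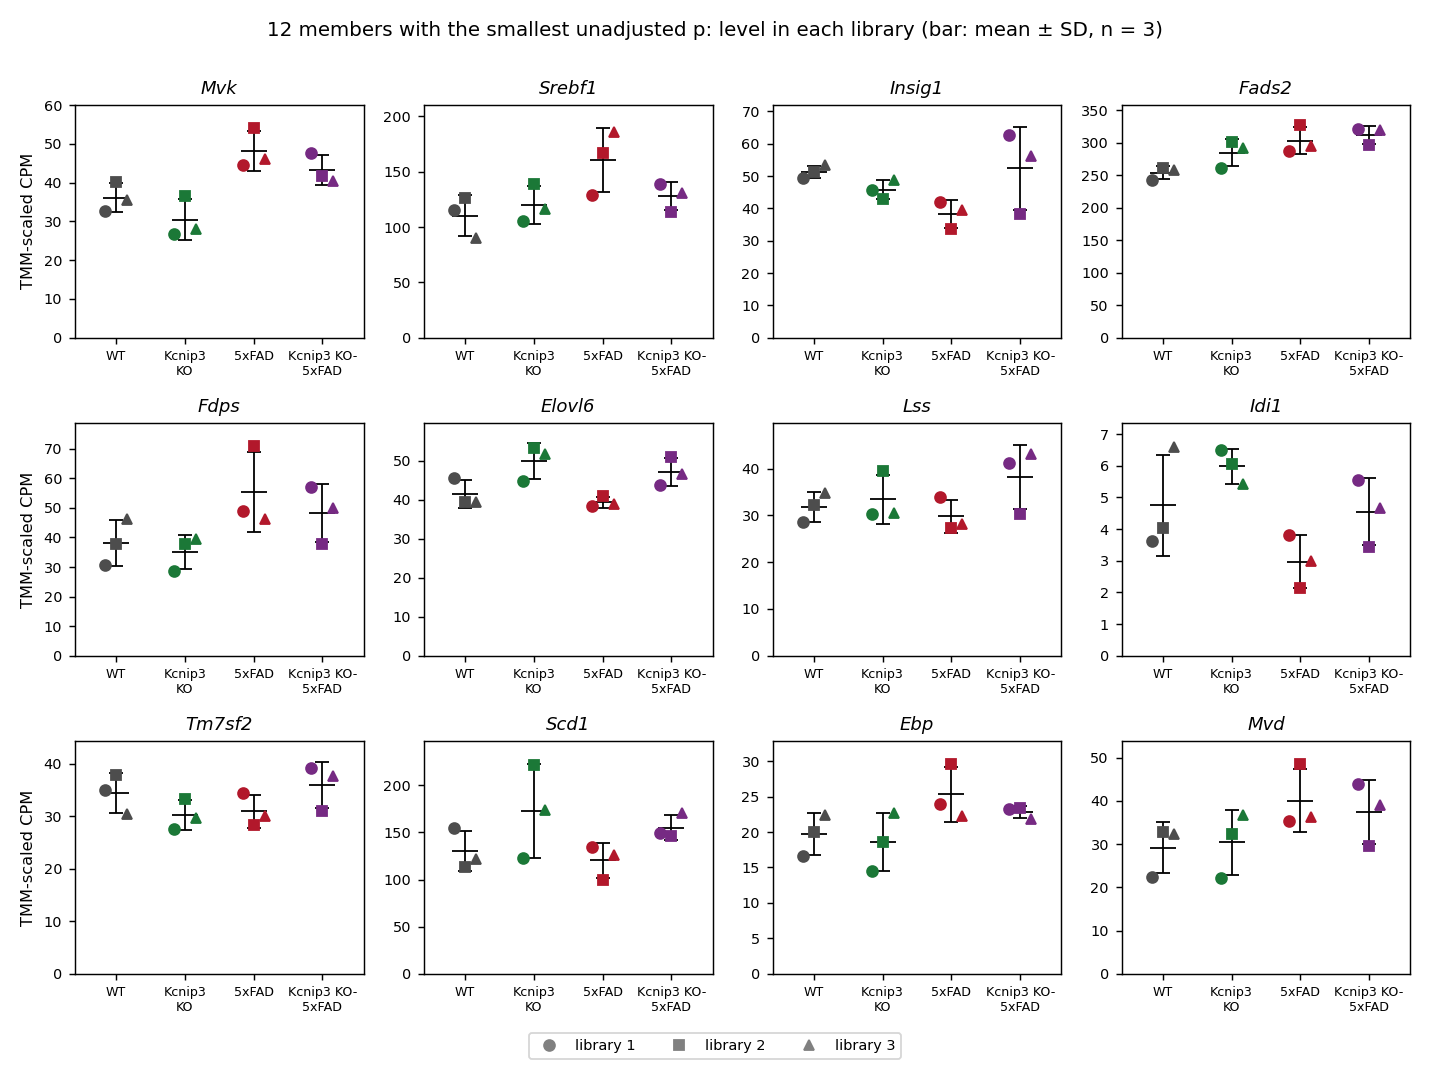
TMM-scaled CPM of the 12 genes with the smallest unadjusted p, in each library (points, shaped by library number) with the group mean and SD (bars, n = 3), by genotype. Insig1 is lowest in 5xFAD at 33.6 to 41.9 CPM and spreads from 38.1 to 62.8 CPM in Kcnip3 KO-5xFAD, and Srebf1 is highest in 5xFAD at 129 to 186 CPM.

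Comparing Kcnip3 KO with WT asks what loss of Kcnip3 does without the transgenes. All 8 fatty acid genes were higher, with a median log2 fold change of 0.16, and the 18 sterol enzymes had a median of 0.01. The direction of the sterol enzymes changed with the libraries used. Without WT 3 and Kcnip3 KO-5xFAD 2, 16 of the 18 were higher, with a median of 0.12, and without Kcnip3 KO 3, 5 of the 18 were higher, with a median of -0.09. The fatty acid genes had medians of 0.19 and 0.16 in those fits, with 8 of 8 higher in both. With the length and GC correction over 12 libraries they no longer all pointed one way. Fasn was then at -0.038 and Acaca at -0.0023, and the other fatty acid genes were higher by 0.059 to 0.38. No difference was called, so this describes directions only. By edgeR 0 of 31 members were called, where 0.0503% of all tested genes were, and by DESeq2, limma-voom and limma on TPM also 0. At an unadjusted p under 0.05, 2 members were higher and 0 lower, against 2.57% and 1.95% of all tested genes. Without Kcnip3 KO 3, 0 members were higher and 0 lower at that threshold, against 365 and 296 of 16213 tested genes. The median of the members was then -0.04, beside 0.03 with all 12 libraries. The 95% interval of the fold lay within 1.5-fold either way for 28 of the 31 members and within 2-fold for 31.

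Elovl6, which lengthens palmitate, stood at 44.9, 53.4 and 51.7 CPM in Kcnip3 KO and 45.6, 39.6 and 39.4 in WT. Kcnip3 KO 1 and WT 1 were level and the other libraries apart. Elovl6 differed by 0.27 ± 0.10 (edgeR, adjusted p = 0.999). Scd1 stood at 123, 222 and 174 CPM in Kcnip3 KO and 154, 114 and 122 in WT, so the groups overlapped and Kcnip3 KO 2 stood highest. Its log2 fold change was 0.41 ± 0.19 (edgeR, adjusted p = 0.999), and without Kcnip3 KO 2 it was 0.19. Scd2 and Fads2 lay wholly above WT, as did 4.58% of all tested genes, and Insig1 wholly below, as did 4.89%. Scd2 was at 1107 to 1407 CPM against 958 to 1103, a gap of a few CPM between the nearest libraries. Fads2 measured 262, 301 and 292 CPM in Kcnip3 KO and Insig1 45.8, 42.9 and 48.8. For Fads2 the nearest libraries were level, at 261.5 CPM in Kcnip3 KO and 261.0 in WT. For the other members followed by library the groups overlapped: Srebf1 was at 105, 139 and 116 CPM in Kcnip3 KO, Mvd at 22.2, 32.4 and 36.8, Idi1 at 6.48, 6.04 and 5.41, and Ebp at 14.5, 18.6 and 22.7. Lss stood at 30.3, 39.5 and 30.5 CPM in Kcnip3 KO and 28.5, 32.2 and 34.8 in WT. All 12 myelin markers were higher as well, with a median of 0.51, summing to 4719 to 9005 CPM in Kcnip3 KO and 3580 to 5947 in WT, and their part in the fatty acid genes was not tested.

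**Figure D5:**
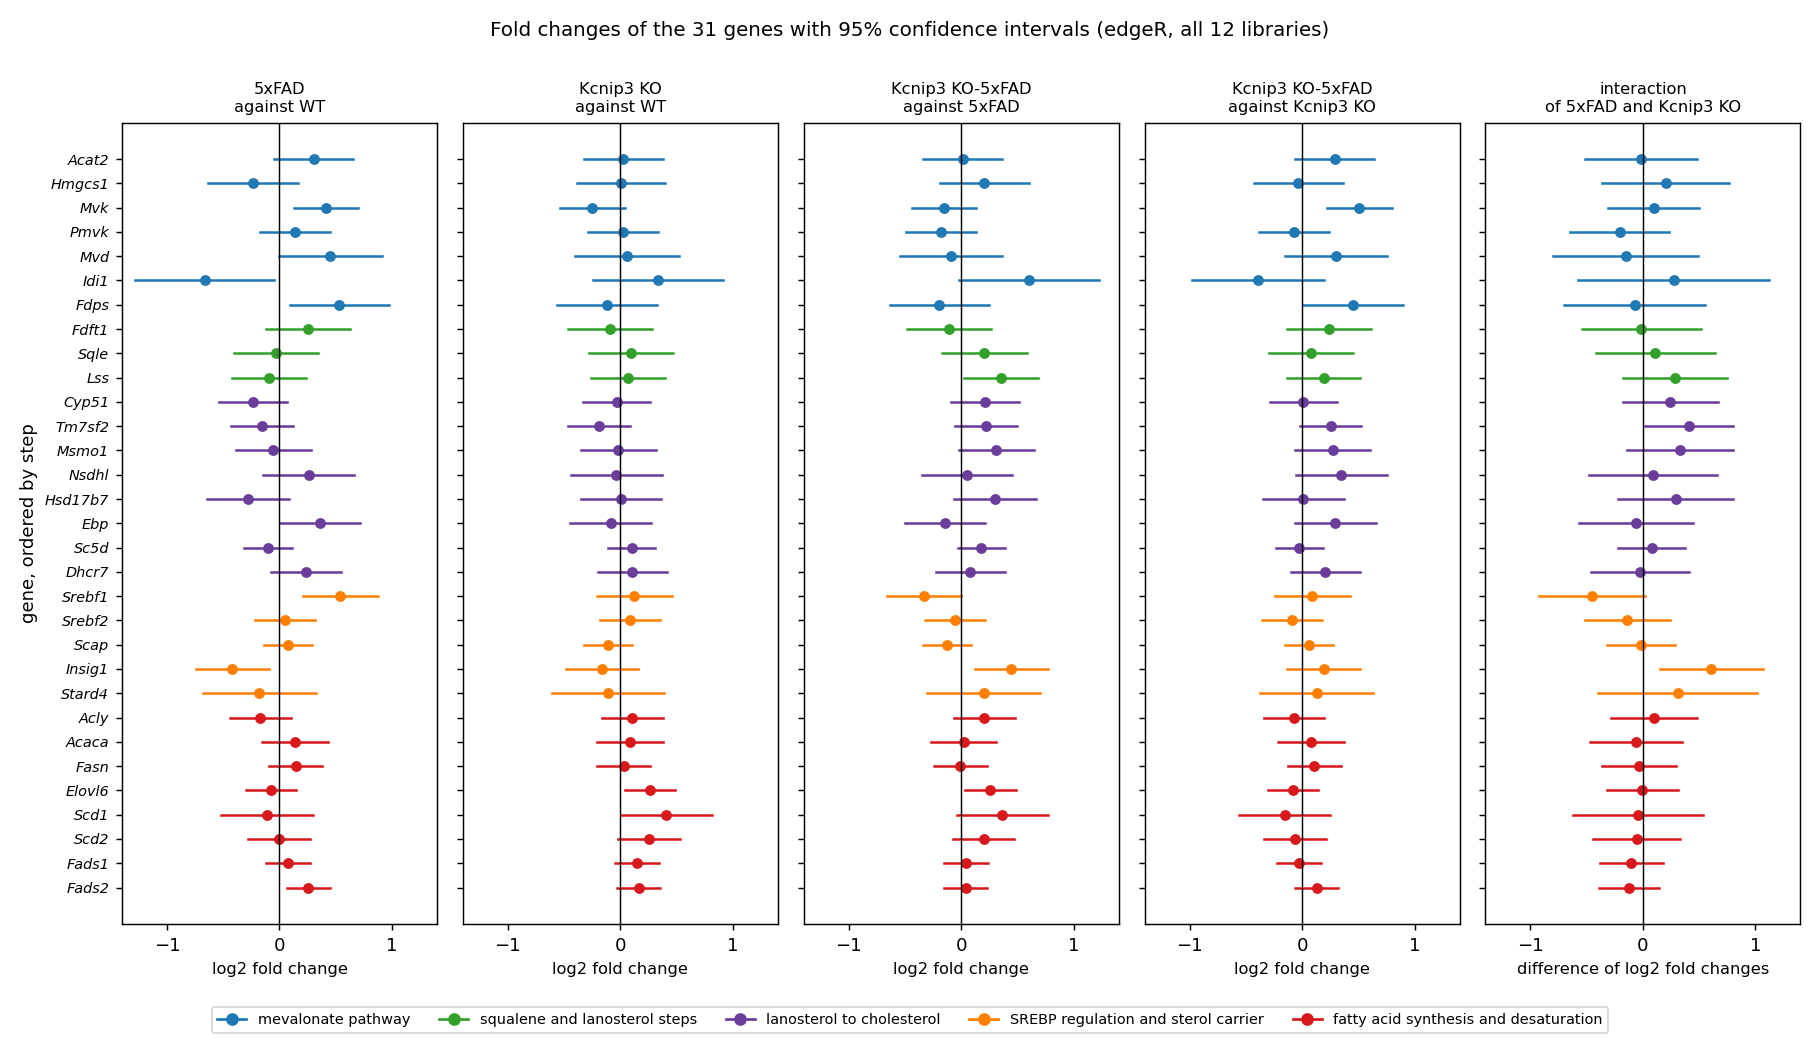
Log2 fold change of each of the 31 genes with its 95% confidence interval, for the 4 comparisons and the interaction (panels), by pathway step (colours), from the edgeR fit of 12 libraries. None of the members was called in any panel, and intervals that miss 0 are those with an unadjusted p under 0.05.

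Comparing Kcnip3 KO-5xFAD with 5xFAD asks what loss of Kcnip3 does in mice with the transgenes. This comparison shares the 5xFAD libraries with the first. Of the members 21 were higher and 10 lower, with a median log2 fold change of 0.08 beside -0.004 for all tested genes, and Insig1 and Idi1 were higher and Srebf1 lower by the largest amounts. By edgeR 0 of 31 members were called, where 0.0692% of all tested genes were, and 0 by DESeq2, limma-voom and limma on TPM. At an unadjusted p under 0.05, 3 members were higher and 0 lower, against 6.44% and 3.92% of all tested genes. The 95% interval of the fold lay within 1.5-fold either way for 21 members and within 2-fold for 30.

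Insig1 was at 62.8, 38.1 and 56.1 CPM in Kcnip3 KO-5xFAD, against 41.9, 33.6 and 39.5 in 5xFAD. Libraries 1 and 3 of the double mutant were above all 9 libraries of the other genotypes, while library 2, one of those against its label, lay within 5xFAD. The log2 fold change was 0.45 ± 0.15, or 1.36-fold with a 95% interval of 1.09 to 1.71 (edgeR, adjusted p = 0.433). Without Kcnip3 KO-5xFAD 2 and WT 3 it was 0.63 ± 0.12 (edgeR, adjusted p = 0.241). Without Kcnip3 KO-5xFAD 1 it was 0.29. Srebf1 was at 139, 114 and 131 CPM in Kcnip3 KO-5xFAD, overlapping 5xFAD at its lowest library, with a log2 fold change of -0.33 ± 0.15 (edgeR, adjusted p = 0.481). Idi1 was at 5.54, 3.44 and 4.67 CPM, with 0.60 ± 0.29 (edgeR, adjusted p = 0.488).

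Lss, lanosterol synthase, was at 41.1, 30.3 and 43.2 CPM in Kcnip3 KO-5xFAD and 33.9, 27.4 and 28.2 in 5xFAD. Libraries 1 and 3 were above all 5xFAD libraries and library 2 was not, and the log2 fold change was 0.36 ± 0.15 (edgeR, adjusted p = 0.457). Elovl6 was at 43.8, 51.0 and 46.7 CPM against 38.4, 41.0 and 38.9, without overlap, with 0.26 ± 0.10 (edgeR, adjusted p = 0.450), or 0.08 with the length and GC correction. Also wholly above 5xFAD were Hsd17b7, Sc5d, Scd1 and Fads1, so 5 members in all, where 9.05% of all tested genes were. For Fads1 the nearest libraries were level, at 257.7 and 256.9 CPM, and the log2 fold change was 0.04. With the length and GC correction the log2 fold change of Sc5d went from 0.18 to 0.0099 and that of Hsd17b7 from 0.30 to 0.16. Pmvk was wholly below, at 64.8 to 67.9 CPM against 69.5 to 78.7, as were 7.29% of all tested genes, and the correction turned its log2 fold change from -0.18 to 0.015. Scd1 was at 149.6, 146 and 170.05 CPM against 135, 99.4 and 126, and Sc5d, lathosterol desaturase, at 52.7 to 55.3 against 42.5 to 52.5.

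Comparing Kcnip3 KO-5xFAD with Kcnip3 KO asks how the transgenes act without Kcnip3, and it shares libraries with the 2 comparisons before it. Mvk was the member with the smallest p, at 47.7, 41.7 and 40.5 CPM against 26.8, 36.5 and 28.1, without overlap. Non-overlap upward held for 8.37% of all tested genes and downward for 7.25%, and of the members for 1 and 0. For Mvk the log2 fold change was 0.51 ± 0.13, or 1.42-fold with a 95% interval of 1.17 to 1.74 (edgeR, adjusted p = 0.251). Fdps was at 57.0, 37.7 and 50.1 CPM against 28.6, 37.7 and 39.4, with library 2 of the double mutant inside the knockout range, and differed by 0.46 ± 0.21 (edgeR, adjusted p = 0.470). By edgeR 0 of 31 members and 0% of all tested genes were called. DESeq2, limma-voom and limma on TPM also called 0 members. At an unadjusted p under 0.05, 2 members were higher and 0 lower, against 6.09% and 4.33% of all tested genes. Mvd was at 43.9, 29.4 and 39.0 CPM in Kcnip3 KO-5xFAD, Ebp at 23.2, 23.3 and 21.9, and Fads2 at 321, 296 and 319, each overlapping Kcnip3 KO. Of the 18 sterol enzymes 14 were higher, with a median of 0.22, and of the 8 fatty acid genes 3, with a median of -0.04. Without Kcnip3 KO 3, 17 of the 18 sterol enzymes were higher, with a median of 0.26, and 0 members were called.

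On values without the length and GC correction, the effects of the transgenes with and without Kcnip3 were close for Mvk and Fdps and apart for Insig1. Mvk differed by 0.41 with the transgenes in mice with Kcnip3 and by 0.51 in mice without it, and Fdps by 0.53 and 0.46. The difference between these effects, the interaction, was 0.10 ± 0.19 for Mvk and -0.08 ± 0.29 for Fdps. The length and GC correction moved Mvk apart, to 0.22 with Kcnip3 and 0.45 without it, an interaction of 0.23. Corrected values were 0.47 and 0.45 for Fdps and -0.44 and 0.17 for Insig1. Insig1 had the smallest p of the interaction at 0.61 ± 0.21, since it was lower by 0.42 with the transgenes in mice with Kcnip3 and higher by 0.19 in mice without it (edgeR, adjusted p = 0.853). Tm7sf2, a sterol reductase, was at 35.0, 37.9 and 30.4 CPM in WT, 27.6, 33.3 and 29.7 in Kcnip3 KO, 34.4, 28.4 and 30.0 in 5xFAD and 39.3, 31.0 and 37.7 in Kcnip3 KO-5xFAD. All 4 groups overlapped, and its interaction was 0.41 ± 0.18 (edgeR, adjusted p = 0.853). Srebf1 had -0.45 ± 0.22 (edgeR, adjusted p = 0.853). By edgeR the interaction was called for 0 of 31 members and 0% of all tested genes, and DESeq2, limma-voom and limma on TPM called 0 members, as did edgeR without Kcnip3 KO 3. At an unadjusted p under 0.05, 2 members were higher and 0 lower, against 3.48% and 1.78% of all tested genes.

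Without WT 3 and Kcnip3 KO-5xFAD 2, with 16076 genes tested over 10 libraries, more sterol genes had a small unadjusted p, and again 0 of 31 members were called by edgeR in each of the 5 contrasts. WT 3 was the highest of its group for 13 of the 18 sterol enzymes, and Kcnip3 KO-5xFAD 2 the lowest for 14. For those enzymes, leaving them out lowers the WT mean and raises that of the double mutant. The counts over 10 libraries therefore cannot be read apart from this removal. The shares of all tested genes called were 1.30%, 0.0435%, 0.0373% and 1.30% for the 4 comparisons in the order above, and 0.00622% for the interaction. In Kcnip3 KO-5xFAD against 5xFAD, 10 members were higher at an unadjusted p under 0.05 and 0 lower, against 5.62% and 3.65% of all tested genes. Besides Insig1 these were Hmgcs1, Idi1, Sqle, Lss, Tm7sf2, Msmo1, Hsd17b7, Stard4 and Acly. Msmo1 was at 103 and 94.7 CPM in the remaining double mutants and 71.9, 75.7 and 68.0 in 5xFAD, and differed by 0.46 ± 0.12 (edgeR, adjusted p = 0.530). Sqle, squalene epoxidase, differed by 0.41 ± 0.11 (edgeR, adjusted p = 0.530).

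In Kcnip3 KO-5xFAD against Kcnip3 KO over the 10 libraries, 10 members were also higher and 0 lower, against 5.82% and 2.58% of all tested genes. The smallest p was that of Nsdhl, a sterol dehydrogenase, which was at 41.5 and 35.5 CPM in the remaining double mutants and 24.7, 25.1 and 28.3 in Kcnip3 KO. It differed by 0.56 ± 0.14 (edgeR, adjusted p = 0.0933), compared with 0.35 over all 12 libraries. In 5xFAD against WT 9 members were higher and 1, Insig1, lower, against 7.71% and 7.08% of all tested genes. Fdps differed by 0.69 ± 0.20 (edgeR, adjusted p = 0.133) and Srebf1 by 0.41 ± 0.16 (edgeR, adjusted p = 0.249). In Kcnip3 KO against WT 2 members were higher, Idi1 and Sqle, and 0 lower, against 1.85% and 2.12%. For the interaction 2 were higher, Tm7sf2 at 0.59 ± 0.18 and Insig1 at 0.77 ± 0.17 (edgeR, adjusted p = 0.991), and 0 lower, against 2.46% and 0.995%. The double mutant then rests on 2 libraries. Their microglial markers summed to 1358 and 1086 CPM, against 405 to 463 in Kcnip3 KO and 1332 to 1792 in 5xFAD. Against 5xFAD, 8 of the 10 microglial markers were lower over the 10 libraries, with a median of -0.20, while 14 of the 18 sterol enzymes were higher, with a median of 0.23.

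Outside the 31 members, a list of 22 other sterol genes and 24 other fatty acid genes gives the neighbouring steps, of which 22 and 23 were tested. In 5xFAD against WT, 1 of 22 sterol genes and 2 of 23 fatty acid genes were called higher and 0 lower. Of all 15905 tested genes, 304 were called higher and 258 lower, or 3.53% in both directions together. Npc2, which carries cholesterol out of lysosomes, rose from 89.0, 85.3 and 91.3 CPM in WT to 174, 204 and 197 in 5xFAD, a log2 fold change of 1.12 ± 0.15 (edgeR, adjusted p = 0.0104). Mlxipl, the carbohydrate-responsive factor ChREBP, rose by 1.17 ± 0.25 (edgeR, adjusted p = 0.0332). Elovl1, an elongase of saturated very long chains, rose by 0.61 ± 0.13 (edgeR, adjusted p = 0.0326), and without the 2 libraries against their labels it was not called (0.59, edgeR, adjusted p = 0.113). In that fit Npc2 was called at 1.14 (edgeR, adjusted p = 0.000162) and Mlxipl at 1.42 (edgeR, adjusted p = 0.00409). With limma on TPM, or with the length and GC correction, Npc2 was called and Mlxipl and Elovl1 were not. The calls were also lost when single libraries were left out. Without WT 1, 5xFAD 2 or 5xFAD 3, none of Npc2, Mlxipl and Elovl1 was called, with adjusted p by edgeR of 0.0512 to 0.147, and 1 gene of the whole table was called in each of those fits. Without WT 2 or WT 3, Npc2 was called and Mlxipl and Elovl1 were not. The log2 fold changes over these fits were 1.06 to 1.14 for Npc2, 1.01 to 1.42 for Mlxipl and 0.58 to 0.63 for Elovl1. In the other 4 contrasts none of these genes was called with 12 libraries, and with 10 libraries Npc2 was called higher in Kcnip3 KO-5xFAD against Kcnip3 KO, at 0.85 ± 0.12 (edgeR, adjusted p = 0.00122). That fit called 1.30% of all tested genes in this contrast.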

How the data were processed

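The authors deposited raw read counts per Ensembl gene for 12 libraries, and log2 TPM values. Tools named in the submitters' processing notes are edgeR 3.38.4, R 4.2.1, featureCounts, HISAT2 2.1.0 with the mm10 build, and FastQC 0.11.9. Strand setting, annotation release and the lengths behind TPM were not given in the sources used here.

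Symbols and positions came from GENCODE M21, on the same assembly. All 12 libraries, grouped by the labels, were fitted together in edgeR 4.0.16 (R 4.3.3), with TMM scaling, filterByExpr and a robust quasi-likelihood test. The residual degrees of freedom were 8 and the common biological coefficient of variation 0.144. Adjusted p-values are Benjamini-Hochberg values over 15905 genes, called under 0.05. Alternatives used DESeq2 1.42.0, limma 3.58.1, other scalings and filters, a length and GC correction, a replicate block and libraries left out. Intervals cover the spread between libraries, and fold changes of genes with few counts are the least precise.

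The members and lists were chosen with earlier results of these data known. Values by library are given for the 12 members with the smallest unadjusted p over the 5 contrasts. Npc2, Mlxipl and Elovl1 were named from the lists of other pathway genes, and some genes that the rule takes are not reported here. Trem2 and Cst7 were added as checks.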

Additional observations from a re-analysis of the deposited data

How the results depend on the processing

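Each contrast was recomputed under 23 alternatives, and the interaction under 22. In 5xFAD against WT the count of members called, 0 as reported, was 2 with the DESeq2 test (Srebf1 and Fads2), 5 with no filter (Mvk, Mvd, Fdps and Srebf1 higher, Insig1 lower) and 0 to 1 when a library was left out. Of all genes, 562 were called as reported, 1421 with DESeq2, 2131 with no filter, and 1 to 2117 when a library was left out. In Kcnip3 KO-5xFAD against Kcnip3 KO it was 2 with no filter (Mvk and Fdps), where 721 genes were called, beside 0 as reported. The cause was not tested. In the other contrasts it was 0 under every alternative run. The median of the members in 5xFAD against WT, 0.05 as reported, was -0.088 with limma on log2 TPM, where the median of all genes was -0.13, and 0.03 to 0.11 when a library was left out. In the other contrasts the medians moved by less than the SD of the members' library medians within genotypes, but that of some contrasts changed sign. The median in Kcnip3 KO against WT, 0.03 as reported, ran from -0.036 to 0.14, and that of the interaction, -0.014 as reported, from -0.066 to 0.11. For Kcnip3 KO-5xFAD it ran from 0.038 to 0.19 against 5xFAD, 0.08 as reported, and from 0.03 to 0.18 against Kcnip3 KO, 0.09 as reported. All genes called in 5xFAD against WT were 114 with the length and GC correction and 1 without WT replicate 1, 5xFAD replicate 2 or 5xFAD replicate 3.

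The log2 fold change of Sqle in Kcnip3 KO-5xFAD against Kcnip3 KO, 0.08 as reported, was -0.014 with limma on log2 TPM, -0.028 without Kcnip3 KO-5xFAD replicate 1 and -0.036 without Kcnip3 KO-5xFAD replicate 3, and -0.036 to 0.28 over the fits that left out a library. The cause was not tested.

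Labels give the same replicate numbers in each genotype. Of 18 pairs of same-numbered libraries 6 had a correlation of deviations over 0.1, over a range of -0.32 to 0.246, and 4 of 12 libraries correlated best with their own number, so the numbers were not taken to pair libraries. With a replicate block, 1 member was called in 5xFAD against WT, Mvk at 0.42 (edgeR, adjusted p = 0.0494), and 0 in the other contrasts, and 1234 genes were called in 5xFAD against WT.

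Depth limits Idi1 most among the members, with 15 to 63 counts a library and a 95% interval of 0.411 to 0.967 for its fold in 5xFAD against WT.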
